A study of Mus musculus with 6 samples.

Results

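Expression of 8 genes that mark neural progenitors or regulate neuronal differentiation, *Nes*, *Nfib*, *Mef2a*, *St18*, *Bhlhe40*, *Bhlhe41*, *Dclk1* and *Olfm1*, was compared between *Kap1* knockdown and control N2A cells. The genes were taken by symbol from the platform annotation and were represented by 9 transcript clusters, 2 of them for *Nfib*, out of 6951 transcript clusters and 5322 named genes on the deposited table. They had been chosen with the result of this same comparison known, so their values are given as a description and no test is reported for them. The knockdown group consisted of 3 samples of N2A cells, a mouse neuroblastoma line, transfected with the shA shRNA vector against *Kap1*. The control group consisted of 3 samples of the same line that received a scrambled shRNA. Cells of both groups were given 1.5 µg of shRNA plasmid and 300 ng of the hygromycin resistance plasmid pTK-Hyg, moved into hygromycin after 3 days and harvested 7 days later. Each sample was therefore a mixed population of drug-resistant cells rather than a clone. RNA was hybridised to GeneChip Mouse Gene 1.0 ST arrays, which read a gene through a set of probes, the transcript cluster.

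KAP1, encoded by *Trim28*, is a corepressor that has no DNA binding domain of its own and is brought to chromatin by zinc finger proteins and other factors, where it recruits HP1 proteins and the histone methyltransferase SETDB1. Neural progenitors carry the intermediate filament protein nestin and lose it as they differentiate. The passage from progenitor to neuron is governed by transcription factors such as the NFI, MEF2 and MYT1 families, while basic helix-loop-helix repressors of the HES, HEY and BHLHE groups hold back target genes, and cytoskeletal proteins of the doublecortin family take part in neuronal migration and neurite growth.

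The hairpin that set the 2 groups apart is shown because each value below depends on it. Capitals mark the 17 bases of each arm that pair with each other, and the oligonucleotide is the forward strand cloned for shA.
Kap1 shA forward oligo: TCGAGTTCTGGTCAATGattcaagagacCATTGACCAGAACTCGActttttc
*Trim28* itself (transcript cluster 10550076) had intensities of 866, 861 and 936 on the knockdown arrays, against 3377, 3443 and 3267 on the control arrays. The targeted gene thus followed the labels on all 6 arrays.

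The values are intensities on a linear scale after Robust Multi-array Average (RMA) normalisation by the authors. Fold changes are differences of mean log2 intensity, knockdown minus control, with standard errors from limma. Changed, rose and fell are used where the adjusted p (Benjamini-Hochberg over all 6951 transcript clusters) was at most 0.05 and the fold at least 1.4, the thresholds of the study's methods. Of the transcript clusters on this table, 100% passed the adjusted p and in 100% the 3 knockdown arrays did not overlap the 3 control arrays, so neither criterion separates the listed genes from each other. Shares and medians over the table therefore describe transcript clusters or genes that all differed in this comparison. They do not describe the whole array or all expressed genes. A gene that is not on this table has no value here. The adjustment covers only the transcript clusters listed. The adjusted p-values printed below are therefore no error rates over the whole array and no independent support for a difference. The median intensity per array was 507 to 528 in the knockdown and 505 to 553 in the control. The labels speak of triplicates without saying whether they were separate transfections, so standard errors and p-values measure no more than how these samples differed, and that may be a technical spread. With few arrays in a group the precision is limited.

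The 8 genes split evenly, and of their 9 transcript clusters 4 were higher and 5 lower, beside 51.3% higher and 48.7% lower among all those listed. *Bhlhe41*, *St18*, *Bhlhe40* and *Dclk1* were higher in the knockdown, by 0.79 to 1.55 on the log2 scale, and *Nes*, *Nfib*, *Olfm1* and *Mef2a* were lower, with log2 fold changes from -1.74 to -0.48. Of the 9 transcript clusters, 4 lay past the 1.4-fold threshold upwards and 4 downwards. Of all transcript clusters listed 32.6% were changed, 15.0% higher and 17.6% lower, but the genes were picked from this comparison and nothing is read from the larger share among them. The median absolute log2 fold change was 0.79 for the 9 transcript clusters and 0.38 for all. Past a fold of 2 were *Bhlhe41*, *St18* and *Bhlhe40* (3 higher) and *Nes* (1 lower), beside 7.27% of all transcript clusters listed. Of those past the 1.4-fold threshold *Olfm1* had the smallest fold (1.52), and *Mef2a* lay just outside it (1.397-fold).

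**Figure D1:**
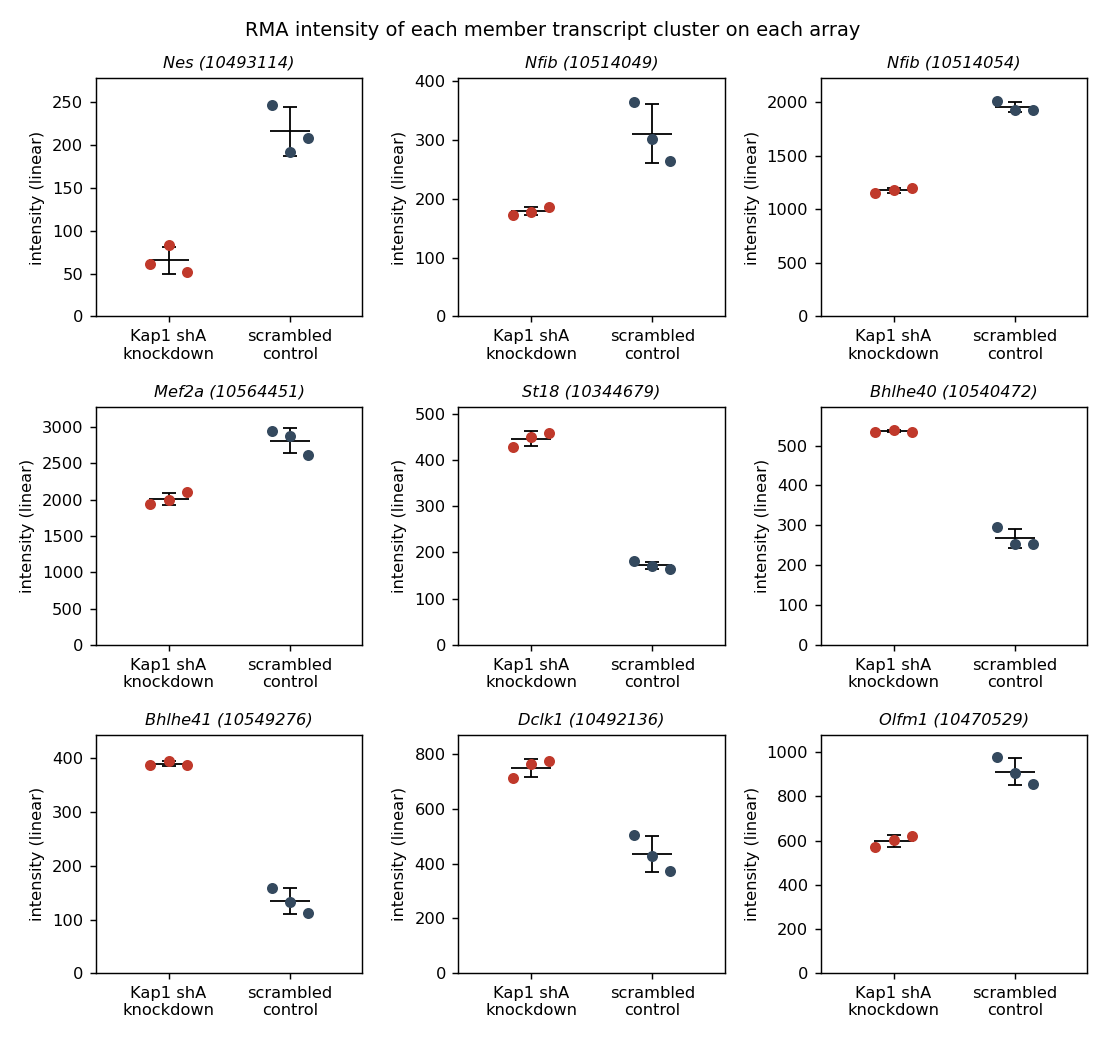
RMA intensity on a linear axis for each of the 9 transcript clusters, with the 3 knockdown arrays on the left and the 3 control arrays on the right of each panel. Points are arrays and black marks are the mean ± SD (n = 3). In each panel the groups do not overlap, as for every transcript cluster on this table.

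The deepest difference was that of *Nes* (10493114), which encodes nestin, the intermediate filament protein used as a marker of neural stem and progenitor cells. Its intensity was 61, 83 and 52 in the knockdown, against 247, 192 and 208 in the control. All 3 knockdown arrays lay under the control arrays, with a gap of 109 between the nearest pair. The means were 65.3 ± 15.9 in the knockdown and 216 ± 28.3 in the control (SD, n = 3 each), so the knockdown retained 29.9% of the control level. On the log2 scale the difference was -1.74 with a standard error of 0.16, the widest of the 9, and came 48th among all falls on the table. Within the knockdown the arrays spread by 24.4% of their mean (coefficient of variation), more than for any other of the 8 genes. The knockdown mean was dim, at percentile 3.27 of all transcript clusters, where the lowest intensity per knockdown array was 24 to 26. With a pseudocount of 16 the log2 fold change was -1.52. The part of low signal in the size and spread of this difference was not tested. In RNA from bulk cells, fewer cells with a transcript and less of it per cell cannot be told apart.

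Other intermediate filament genes were lower as well. Of 13 in the list used here, 8 were on the table and 4 of them fell, *Nes* included. All 8 were lower in the knockdown, beside 49.7% of all named genes. *Nes* was chosen on this comparison and is part of these counts and of the list's median. *Synm*, which encodes synemin, a filament protein that assembles with partners such as vimentin, had 131, 118 and 142 in the knockdown, against 228, 226 and 235 in the control (log2 fold change -0.82, standard error 0.069, adjusted p = 6.02e-06 from limma). For *Prph*, which encodes the neuronal filament peripherin, the log2 difference was -0.54 (standard error 0.050). *Ina*, the neurofilament partner alpha-internexin, had -0.53 on transcript cluster 10463732 and -0.56 on 10463737. These 3 fell beyond 1.4-fold. The rest were under that size: the lamins *Lmnb2* (-0.34) and *Lmna* (-0.31), the heavy neurofilament *Nefh* (-0.30) and *Vim* (-0.23), which encodes vimentin, a filament protein that progenitors have beside nestin. The list's median log2 fold change was -0.43, beside 0.15 for all named genes, of which 16.5% fell. Without control replicate 1 the number that fell was 3.

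Of the transcription factors, *Nfib* was lower on both of its transcript clusters. NFIB is a nuclear factor I protein required for the development of glia and of several neuronal types in the brain. Transcript cluster 10514054 had 1149, 1177 and 1201 in the knockdown, against 2012, 1925 and 1925 in the control. Transcript cluster 10514049 had 173, 178 and 186 in the knockdown, against 365, 302 and 265 in the control. The knockdown arrays were close together on both, while on the second the control arrays spread by 16.3% of their mean. The knockdown retained 60.2% of the control level on the first (log2 fold change -0.73, standard error 0.049) and 58.1% on the second (-0.78, standard error 0.10). The readings thus differed by 0.051 on the log2 scale, less than the larger of their standard errors. For the 178 genes with exactly 2 transcript clusters on the table the median difference was 0.067, and 98.3% of these genes had both in the same direction. *Nfia*, *Nfic* and *Nfix*, the other NFI genes, were not on the table.

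*Mef2a* (10564451) encodes a MADS box factor that acts in muscle and in the differentiation and synaptic remodelling of neurons. It had 1939, 1990 and 2108 in the knockdown, against 2946, 2872 and 2621 in the control. The groups were apart on every array, yet the knockdown mean was still 71.6% of that in the control, and the log2 fold change of -0.48 (standard error 0.061) was the smallest of the 9 and under the fold threshold of 1.4. Of the MEF2 genes only *Mef2a* was on the table. A RefSeq promoter of *Mef2a* (GRCm38.p6, chr7:67372809-67373108, minus strand) is printed because it holds a match to the MEF2 site, the element that MEF2 proteins themselves bind, in capitals. The promoter runs from 250 bases before to 50 bases after an annotated start of transcription, and the match begins 2 bases before that start.
Mef2a promoter: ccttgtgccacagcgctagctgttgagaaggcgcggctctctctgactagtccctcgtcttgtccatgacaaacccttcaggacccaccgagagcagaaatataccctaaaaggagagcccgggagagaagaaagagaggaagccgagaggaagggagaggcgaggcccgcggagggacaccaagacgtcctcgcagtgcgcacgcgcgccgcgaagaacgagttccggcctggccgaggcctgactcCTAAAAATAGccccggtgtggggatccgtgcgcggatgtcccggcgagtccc
Both strands were searched, and 0.557% of the 32851 RefSeq promoters of this length hold such a match. The match describes the letters in this window, and binding was not measured.

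*St18* (10344679), also called *Myt3*, encodes a zinc finger factor of the MYT1 family. Its intensity was 428, 450 and 459 in the knockdown, against 181, 170 and 165 in the control. The lowest knockdown array was 2.36 times the highest control array. The means were 446 ± 15.9 in the knockdown and 172 ± 8.19 in the control (SD, n = 3 each), which is 1.37 on the log2 scale (standard error 0.056). All 3 genes of the family were on the table and all were higher in the knockdown, as 50.3% of all named genes were. *Myt1l*, known for keeping neurons from expressing genes of other lineages, had 0.42 (standard error 0.066), and *Myt1*, which is active in early neuronal differentiation, had 0.24 (standard error 0.051), both under the 1.4-fold threshold.

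*Bhlhe40* and *Bhlhe41* encode closely related basic helix-loop-helix repressors, also known as DEC1 and DEC2, which bind the E-box CACGTG and act in differentiation, in the response to hypoxia and as a regulatory arm of the circadian clock. *Bhlhe41* (10549276) had 386, 395 and 387 in the knockdown, against 159, 133 and 112 in the control. *Bhlhe40* (10540472) had 535, 538 and 533 in the knockdown, against 295, 253 and 253 in the control. Both were higher on every knockdown array, and the knockdown arrays of each were tightly grouped, with coefficients of variation of 1.27% and 0.470%, against 17.5% and 9.08% in the control. *Bhlhe41* reached 292% of its control level (log2 fold change 1.55, standard error 0.11), the largest rise among the 8 genes and the 30th on the table. *Bhlhe40* reached 201% (1.01, standard error 0.067).

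The RefSeq promoter of *Bhlhe41* (GRCm38.p6, chr6:145865371-145865670, minus strand) is shown because it holds the E-box, in capitals, that its own product and the clock activators recognise. The E-box begins 153 bases before the start of transcription.
Bhlhe41 promoter: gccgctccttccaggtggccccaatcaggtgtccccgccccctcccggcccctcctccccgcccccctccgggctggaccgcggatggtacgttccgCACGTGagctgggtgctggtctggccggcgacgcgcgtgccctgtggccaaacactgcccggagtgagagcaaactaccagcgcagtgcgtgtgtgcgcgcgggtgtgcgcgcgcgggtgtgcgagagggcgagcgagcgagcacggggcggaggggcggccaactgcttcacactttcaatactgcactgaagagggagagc
Of all RefSeq promoters of this length 7.15% hold CACGTG, which reads the same on both strands. Promoter sequences were at hand for 5 of the 8 genes, and of these 5 only *Bhlhe41* held it.

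Genes of the circadian clock, in which both BHLHE repressors take part, mostly differed in the same direction as they did. CLOCK and its partner BMAL1 activate genes through E-boxes, and the products of the *Per* and *Cry* genes repress that activation. Of 21 clock genes in the list, 15 were on the table, with 13 higher and 2 lower in the knockdown, and 9 rose while 2 fell. Among all named genes listed 50.3% were higher and 49.7% lower, 15.8% rose and 16.5% fell. The list's median log2 fold change was 0.54, beside 0.15 for all named genes.

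Of the repressors, *Per1* had 431, 456 and 488 in the knockdown, against 241, 230 and 202 in the control (log2 fold change 1.03, standard error 0.076, adjusted p = 2.43e-06 from limma). *Per3* (0.72), *Cry2* (0.65) and *Cry1* (0.51) rose as well, while *Per2* (0.27) was under 1.4-fold. The nuclear receptor *Nr1d1*, which encodes REV-ERB alpha, a repressor of *Arntl*, had 1633, 1770 and 1859 in the knockdown, against 1010, 1000 and 1004 in the control (0.80, standard error 0.058, adjusted p = 2.24e-06 from limma). Its relative *Nr1d2* also rose (0.54). Of the output factors of the PAR bZIP family *Hlf* rose by 0.81 and *Dbp* by 0.54, and the nuclear receptor *Rorb* by 1.28.

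The 2 genes that fell were the BMAL genes. *Arntl*, which encodes BMAL1, had 199, 205 and 185 in the knockdown, against 371, 332 and 324 in the control (log2 fold change -0.80, standard error 0.067, adjusted p = 5.72e-06 from limma). *Arntl2*, which encodes BMAL2, had 155, 173 and 174 in the knockdown, against 284, 282 and 234 in the control (-0.67, standard error 0.084, adjusted p = 7.03e-05 from limma). Their partner *Clock* had 0.27 and the kinase gene *Csnk1d* 0.16, both under 1.4-fold. The transcript cluster annotated as *Ciart* (0.29) has an identifier that lies among those of chromosome 10 genes while *Ciart* is on chromosome 3, so its name is uncertain. Without it the counts that rose and fell are the same. The sources used here do not give the hour of harvest, and its part in these values was not tested.

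An E-box was present in a promoter of *Per1*, beginning 166 bases before the start of transcription (chr11:69098771-69098800, plus strand), and of *Cry1*, 60 bases before it (chr10:85185097-85185126, minus strand; both GRCm38.p6 from RefSeq). These windows of 30 bases are set beside that of *Bhlhe41* to show the shared element in capitals.
Per1: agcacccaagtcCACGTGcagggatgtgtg
Cry1: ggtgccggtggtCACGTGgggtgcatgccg
With *Ciart*, whose transcript cluster has an uncertain name, 3 of the 13 clock genes on the table that had a promoter sequence held CACGTG. These genes had 18 promoter sequences, of which 3 held it, beside 7.15% of all RefSeq promoters. No match in the others says only that these letters are not in the window, and binding was not measured.

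**Figure D2:**
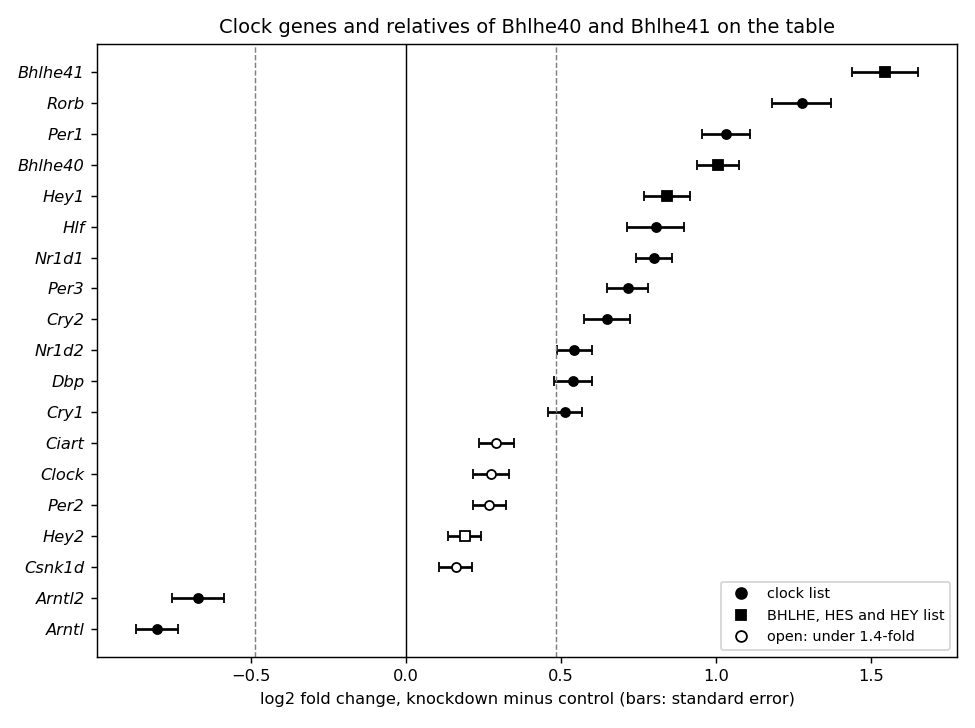
Log2 fold change (knockdown minus control) with its standard error for the genes on the table from the clock list (circles) and from the BHLHE, HES and HEY list (squares). Filled symbols lie past the 1.4-fold threshold marked by dashed lines, and only Arntl and Arntl2 lie to the left of 0.

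Among the HES and HEY relatives of the BHLHE genes, *Hey1* and *Hey2*, effectors of Notch signalling, were on the table. *Hey1* had 503, 498 and 543 in the knockdown, against 310, 294 and 259 in the control (log2 fold change 0.84, standard error 0.073, adjusted p = 7.08e-06 from limma). *Hey2* had 0.19, under the fold threshold. With the BHLHE pair, 4 of 11 genes of this list were on the table, all higher, beside 50.3% of all named genes, and 3 rose, beside 15.8%. *Bhlhe40* and *Bhlhe41*, chosen on this comparison, are 2 of those 3, so nothing is read from the count.

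*Dclk1* (10492136) encodes doublecortin-like kinase, a microtubule-binding protein of migrating and growing neurons. Its intensity was 710, 763 and 772 in the knockdown, against 505, 428 and 374 in the control. The groups were separated by 205 at the nearest arrays, and the control arrays were the more spread, by 15.1% of their mean. The log2 fold change was 0.79 (standard error 0.097). *Dcx*, the founding gene of the doublecortin family, was not on the table, and *Dcdc2a*, whose product has doublecortin domains, had -0.37 (standard error 0.086).

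*Olfm1* (10470529) encodes noelin, or pancortin, a secreted olfactomedin protein of neurons. It had 569, 604 and 620 in the knockdown, against 975, 904 and 856 in the control. The groups were apart by 236 at the nearest arrays. Its knockdown mean was 65.6% of the control, with a log2 difference of -0.61 (standard error 0.063). A stretch of its upstream RefSeq promoter (GRCm38.p6, chr2:28193018-28193052, plus strand) is shown because elements of 2 families described here share a base in it.
Olfm1: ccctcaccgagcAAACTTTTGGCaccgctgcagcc
Capitals mark AAAGTTT, the MYT1 family core, read on the minus strand, followed by TTGGC, the core of the NFI element. They begin 63 and 57 bases before the start and overlap by 1 base. Of all promoters 4.74% hold AAAGTTT and 46.7% hold TTGGC on either strand, so the second is a common word. The other RefSeq promoter of *Olfm1* holds neither, and binding was not measured.

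Of 13 genes with an olfactomedin domain in the list, 5 were on the table, of which 3 fell, *Olfm1* included, and 1 rose, beside 16.5% and 15.8% of all named genes. The median log2 fold change of the 5 was -0.61, beside 0.15 for all named genes, and it is the value of *Olfm1* itself, which was chosen on this comparison. *Adgrl2*, an adhesion receptor of the latrophilin group, had 8 transcript clusters, all of them lower, with log2 fold changes from -0.92 to -0.51. *Olfml3*, a secreted olfactomedin-like protein, had 610, 660 and 643 in the knockdown, against 1138, 1049 and 1065 in the control (-0.77, standard error 0.056, adjusted p = 2.37e-06 from limma). *Olfml1* went the other way, with 132, 126 and 127 in the knockdown, against 66, 69 and 57 in the control (1.01, standard error 0.073, adjusted p = 2.14e-06 from limma). Its control mean of 64.0 was as dim as the knockdown mean of *Nes* (65.3), and the part of low signal in the size of its difference was not tested. *Olfml2b* (-0.29) was under 1.4-fold.

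**Figure D3:**
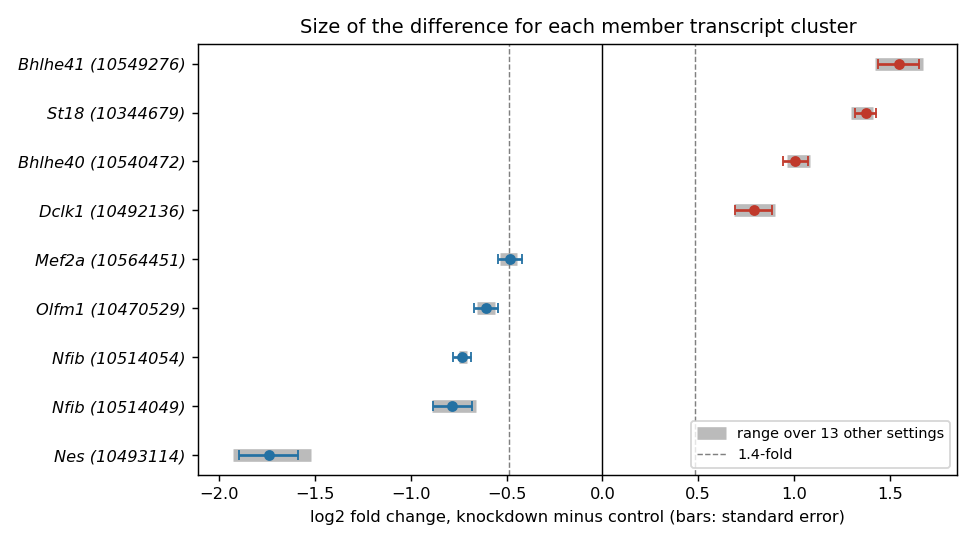
Log2 fold change (knockdown minus control) of the 9 transcript clusters, with points for the value, thin bars for the standard error, grey bands for the range over 13 other settings of the analysis and dashed lines at 1.4-fold. No band reaches 0, and only that of Mef2a, at -0.48, spans a dashed line.

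In wider lists of the same pathway, genes moved in both directions. Of all named genes listed 15.8% rose and 16.5% fell, with a median log2 fold change of 0.15, and the counts below include those of the 8 genes that belong to a list, which were chosen on this comparison. Of 42 progenitor genes, 13 were on the table, 2 rose, a share near that of all named genes, and 4 fell, *Nes* among them (median -0.35). *Tead1*, a factor of the Hippo pathway, had the next deepest log2 fold change on its brighter transcript cluster, 10556456 (-1.05, standard error 0.063). Its other transcript cluster, 10556442, had -0.77. *Id2*, an inhibitor of basic helix-loop-helix factors, lay between these readings (-0.82), and the Notch ligand *Jag2* had -0.53. *Insm1*, a zinc finger factor of neuroendocrine and neuronal progenitors (0.84), and *Msi1*, an RNA-binding protein of neural stem cells (0.64), rose. *Numbl* had 0.19, under the fold threshold.

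Of 54 regulators of neuronal differentiation, 17 were on the table (median log2 fold change -0.28). Of these 3 rose, *St18* included, which is near the 15.8% of all named genes, and 5 fell, *Nfib* included, beside 16.5%. *Isl1*, a LIM homeodomain factor of motor and sympathetic neurons, had 173, 173 and 172 in the knockdown, against 650, 610 and 580 in the control (log2 fold change -1.83, standard error 0.055, adjusted p = 1.57e-08 from limma). *Zeb2* had -0.99 and *Satb1* -0.65, while *Zeb1*, the other ZEB repressor, had 0.63. *Lhx1*, another LIM homeodomain factor, rose by 0.84. *Myt1l*, given above, came next and was under the fold threshold.

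Of 45 genes of neuronal structure and adhesion, 27 were on the table (median log2 fold change -0.24). Of these 4 rose, *Dclk1* included, which is near the 15.8% of all named genes, and 11 fell, *Olfm1* included, beside 16.5%. The deepest falls were those of the neurotrophin receptor *Ngfr* and the growth cone protein *Dpysl5*, each at -1.44 on the log2 scale, and the adhesion molecule *L1cam* had -0.68. For *Dpysl5* each control array read 922. *Nsg1* (0.92) and *Nsg2* (0.72), of neuronal endosomes, and the stathmin *Stmn4* (0.49) rose. Without control replicate 1, 3 rose and 7 fell in this list, and 8 fell after median centring.

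Across arrays the 8 genes shared part of their spread. Control replicate 1 was above the control mean for all 9 transcript clusters, by a median of 0.15 on the log2 scale, and control replicate 3 was below it for all 9, with a median deviation of -0.089. The same arrays deviated in the same direction over the whole table, but less, by medians of 0.044 and -0.052. Control replicate 1 was the highest control array for all 9, and the highest or level with the highest for 59.8% of all transcript clusters listed. In the knockdown, replicate 1 was below its mean for all 9, with a median of -0.053, beside -0.025 for all transcript clusters. The widest deviations in the knockdown were those of *Nes*, at 0.37 on replicate 2 and -0.30 on replicate 3. The median SD within groups was 0.091 on the log2 scale for the 9 transcript clusters and 0.073 for all.

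**Figure D4:**
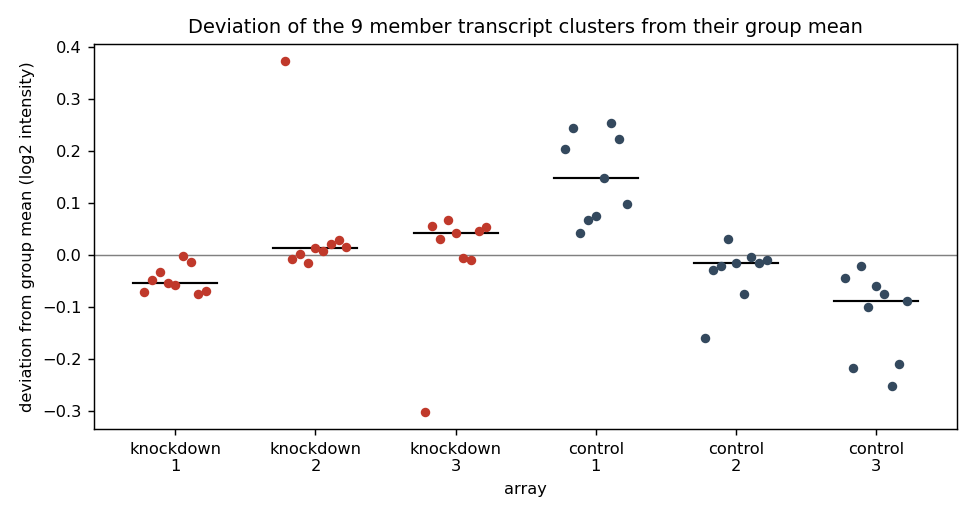
Deviation of each of the 9 transcript clusters from the mean of its group (log2 intensity), by array, with the 3 knockdown arrays left and the 3 control arrays right. Black lines are medians, and control replicate 1 lies above its group mean for all 9 transcript clusters while control replicate 3 lies below it.

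By pattern over the 6 arrays, the named genes most like each of the 8 were found by Pearson correlation of log2 intensity, given as a description since groups that do not overlap give high correlations in any case. For *Nes* these were *Meis3* (r = 0.9979) and *Bdkrb2* (0.9977), and 0.489% of the other named genes had an r of at least 0.99 with it. The share was 2.86% to 9.45% for the other transcript clusters. *Nes* also had the widest SD within groups of these transcript clusters, 0.28 on the log2 scale. The part of that spread in its low share was not tested. For *Bhlhe41* the closest were *Mreg* (0.9999) and *Ckap2l* (0.9997), and for *Bhlhe40* *Rundc3b* and *H2az2* (both 0.9994). *St18* was closest to *Lmo2* (0.9997) and *Paip2* (0.9995), and *Dclk1* to *Tom1l1* (0.9996) and *Dusp19* (0.9992). Among the genes that were lower, *Mef2a* was closest to *Snx18* (0.9990) and *Elovl4* (0.9989), and *Olfm1* to *Cbx5* (0.9997) and *Trim71* (0.9996). *Nfib* was closest to *Ergic1* and *Tmtc1* on transcript cluster 10514054 (both 0.9999), and on 10514049 to *Slc35f5* (0.9997) and *Rfwd3* (0.9990).

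The direction of the listed genes differed between chromosomes, and the 8 genes lie on 6 of them. *Mef2a* is on chromosome 7, where 76.9% of 407 named genes on the table were lower in the knockdown, with a median log2 fold change of -0.31. The 3 nearest listed genes on either side of *Mef2a* were lower too, 6 of 6, among them *Igf1r* (-1.32), *Nr2f2* (-0.96) and *Synm*. *Dclk1* was higher on chromosome 3, as 58.7% of its named genes were, and 5 of its 6 listed neighbours were higher. *Bhlhe40* and *Bhlhe41* were higher on chromosome 6, as 59.7% of its named genes were, with 3 of 6 neighbours higher beside *Bhlhe40* and 2 of 6 beside *Bhlhe41*. The neighbours of *Bhlhe41* that were higher were *Etfrf1* (0.39) and 1700073E17Rik (0.34), and the 4 that were lower were *Rassf8* (-1.10), *Arntl2* (-0.67), *Itpr2* (-0.55) and *Tm7sf3* (-0.16). The remaining genes had the direction of the minority on their chromosome. *Nes* was lower on chromosome 3, *Nfib* on chromosome 4 and *Olfm1* on chromosome 2, where 58.7%, 61.0% and 59.9% of named genes were higher, and each had 3 of 6 neighbours in its own direction. *St18* was higher on chromosome 1, where 46.5% were higher, and 2 of its 4 neighbours were higher. Over the 8 genes 27 of 46 such neighbours had the direction of the gene they flank. The part of chromosomal position in these values was not tested.

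**Figure D5:**
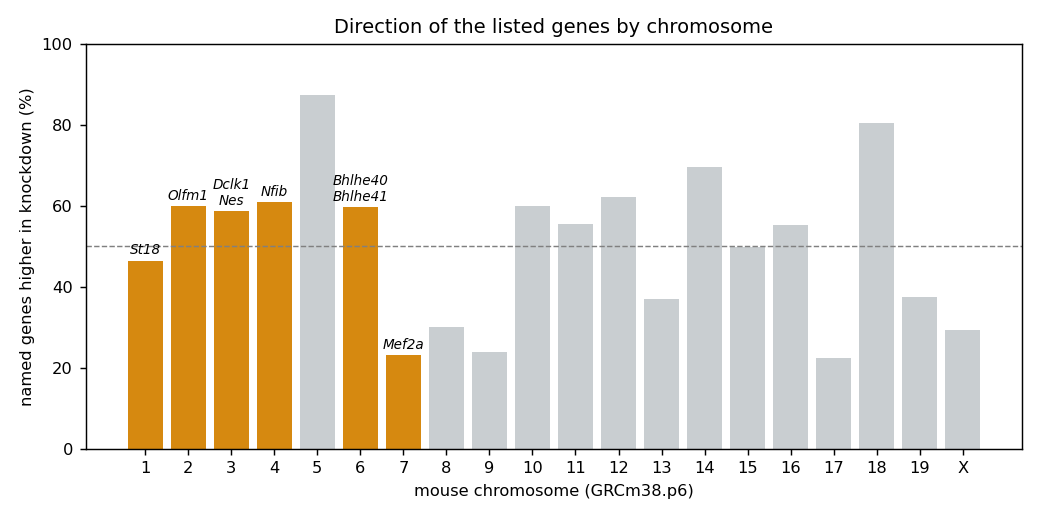
Share of the named genes on the table that were higher in the knockdown, by mouse chromosome, with the chromosomes that hold the 8 genes in orange and a dashed line at 50%. Mef2a lies on chromosome 7, where 23.1% were higher, and the chromosomes of the other 7 genes stand between 46.5% and 61.0%.

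Markers of the line and of other cell types were read beside these values. Of 13 genes of sympathetic neuroblasts, 12 were on the table, with a summed intensity of 19781 to 20522 in the knockdown and 22556 to 23441 in the control. Of these 5 fell (*Isl1*, *Gata3*, *Mycn*, *Phox2a* and *Chga*), beside 16.5% of all named genes, and *Th* and *Dbh*, which encode enzymes of catecholamine synthesis, rose, beside 15.8%. For astrocytes 1 of 6 markers was on the table, *Sox9*, with 435 to 533 in the knockdown and 1097 to 1138 in the control. For Schwann cells there were 3 of 4, summing to 1990 to 2249 in the knockdown and 4447 to 4554 in the control, with *Ngfr* lower and *Erbb3* (0.82) and *Egr2* (0.75) higher. Microglia, fibroblasts and endothelium had 1 of 4 markers each (*Cd68*, *Pdgfra* and *Pecam1*), none past 1.4-fold, and oligodendrocytes 0 of 6. Their part in the values of the 8 genes was not tested.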

How the data were processed

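Total RNA of N2A cells, 3 *Kap1* knockdown and 3 control samples, was profiled on Mouse Gene 1.0 ST arrays. RMA normalisation was done by the authors in GeneSpring, and the submitters' processing notes name limma. The intensities the authors deposited are linear. They were read from the table of whole numbers, and an unrounded version, which differs by at most 0.5, served as an alternative. The rule by which 6951 transcript clusters were listed, and the genome build behind them, are not given in the sources used here. Every listed transcript cluster differed between the groups, the least by 0.118 on the log2 scale in either direction. The largest adjusted p from limma was 0.0365. The table thus holds no transcript cluster whose groups overlap, and whether it was selected on this difference was not tested.

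Log2 intensities (no pseudocount) were analysed in R 4.3.3 with limma 3.58.1 (lmFit, eBayes). No replicate block was used, and p-values were adjusted over all transcript clusters by the Benjamini-Hochberg method. Further values were computed in Python 3.11.15 with numpy 2.4.6 and pandas 2.3.3. The fit was tested on simulated data in which most transcript clusters were left unchanged. On the real table all passed the adjusted p, so that test bears on the code and not on the calls made here. Names came from the platform annotation (5733 transcript clusters with 1 gene, 384 with several, 834 with none), updated through RefSeq of GRCm38.p6. A gene in a list was read from its transcript cluster of highest mean intensity.

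The 8 genes and all lists were chosen with earlier results of these data known. Named were these genes, their family relatives, clock and filament genes on the table, the 3 largest changes in each direction of the wider lists and the 2 most similar patterns. Neighbouring genes and the MEF2 motif were added after values were seen. Alternatives are given in the closing section. Promoters came from RefSeq and the hairpin from the study's oligonucleotide table. Set tests were not run.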

Additional observations from a re-analysis of the deposited data

How the results depend on the processing

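Over 13 alternatives (each array left out in turn, a pseudocount of 16, no dim transcript clusters, unrounded intensities, arrays centred on the median or quantile normalised, a trended robust eBayes and a replicate block) all 9 log2 fold changes kept their direction. Each stayed within the replicate SD of its value except that of *St18*, which was 1.30 with the pseudocount. The replicate block, the trended robust eBayes and the removal of dim transcript clusters leave a log2 fold change unchanged by construction. Dropping 1 array cannot reverse groups that do not overlap. In groups of this size it cannot move a value by more than the replicate SD either. That SD could be passed only with the pseudocount, the unrounded intensities, the centring or the quantile normalisation. *Mef2a*, at -0.45 to -0.53, passed 1.4-fold in 2 of the 13. With 2-fold as the threshold, 153 transcript clusters were higher and 352 lower, 1 of the lower ones among the 9, *Nes*; of the clock list 2 were higher and 0 lower. With arrays left out in turn, 907 to 1202 transcript clusters were higher and 1099 to 1337 lower, with 4 higher and 4 to 5 lower among the 9, and 8 to 9 clock genes rose while 2 fell. The alternatives for the clock list were added after seeing the data. The balance over the table turned after median centring (1217 higher and 1123 lower). It also turned after quantile normalisation (1207 higher and 1135 lower) and without control replicate 1 (1202 higher and 1099 lower). Same-numbered arrays did not deviate together (correlations -0.17, -0.13 and 0.042), and no replicate number can be said to pair them. With the replicate block the counts were 1043 higher and 1225 lower, as without it. All listed transcript clusters passed the adjusted p, and the 9 were chosen on this comparison, so these ranges describe the size of each difference and are no independent support for it.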
